A study of Mus musculus with 16 samples.

Results

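The R-spondins are secreted proteins that raise the sensitivity of cells to Wnt, and this account follows 3 of their genes (Rspo1, Rspo2 and Rspo3), 2 genes of their receptors (Lgr4 and Lgr5) and the genes of the 2 membrane ubiquitin ligases that they act on (Rnf43 and Znrf3). The genes were found by symbol through their Ensembl identifiers, and all 7 were among the 18424 genes of the expression table. Rspo1 was chosen by its normalized read counts as the top gene of HT-Veh versus WT-Veh mice, so its values in that comparison are given as a description with no test. Rspo4 was not a member of the set and was absent from the expression table. Lgr6, the remaining LGR receptor of the family, is shown beside Lgr5 although it was not a member of the set.

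RNA was measured in the prefrontal cortex (medial prefrontal cortex, mPFC) of 16 male C57BL/6N mice at postnatal day 120, with 1 library per mouse and 4 mice per group. WT mice carried 2 intact copies of Arid1b, a subunit gene of the SWI/SNF chromatin remodelling complex, and HT mice carried 1 copy with a germline mutation in exon 5 that truncates the protein. The dams of the vehicle groups (WT-Veh and HT-Veh) drank water with 0.2% saccharin from postnatal day 3 to 21 of their pups, and those of the fluoxetine groups (WT-Flx and HT-Flx) drank the same water with 0.1 mg/ml fluoxetine, a serotonin reuptake inhibitor that reached the pups through milk. Thus the control mice had also been reared on saccharin, and all mice had been off treatment since weaning.

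A Wnt protein binds a Frizzled receptor and the co-receptor LRP5 or LRP6, which stabilizes beta-catenin and turns on genes with the TCF and LEF factors. RNF43 and ZNRF3 mark Frizzled proteins for removal from the cell surface and so lower the response. An R-spondin bridges an LGR receptor and one of these ligases, the ligase is cleared from the membrane, and Frizzled accumulates. RNF43, ZNRF3, AXIN2 and LGR5 are themselves switched on by the pathway in many tissues, LGR5 is best known as a marker of intestinal stem cells, and in mouse cortex Rspo1 is known as a marker of a layer 4 type of excitatory neuron.

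All values are normalized read counts, which are estimated reads per gene divided by factors that make the libraries comparable. Arid1b was at 1787 to 2831 in the 8 WT mice and at 1545 to 2005 in the 8 HT mice, so the genotypes overlapped. The difference of mean log2 values was -0.38 in the vehicle groups (exact permutation test, two-sided p = 0.0857) and -0.39 in the fluoxetine groups (p = 0.0286, the smallest p that 4 against 4 mice allow). The neuronal genes Slc17a7 (32162 to 43463) and Camk2a (74624 to 155834) were high in every library. However, 5 of the 16 libraries (HT-Veh replicate 4, WT-Veh replicate 1 and WT-Flx replicates 1, 2 and 4) also held genes of olfactory bulb output neurons, with Eomes at 149 to 899 against 0 to 25.3 in the other 11. The mean log2 level of the 10 olfactory bulb genes was 7.96 to 9.96 in these 5 libraries and 5.61 to 6.44 in the others. None of the 5 was an HT-Flx library, and 3 were WT-Flx libraries. The results of Arid1b and of the members that moved with the 5 libraries are therefore also given without them. The counts and differences of the marker and pathway lists are given only with them. Without the 5 libraries, Arid1b was at 2255 to 2831 in 4 WT mice and at 1545 to 2005 in 7 HT mice, with no overlap.

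Rspo1 (ENSMUSG00000028871) lies on the plus strand of chromosome 4, from 124986430 to 125009099 in GRCm38. Its promoter is shown because Rspo1 is the gene on which the set was built. The 250 bases before its RefSeq start, chr4:124986180-124986429 (GRCm38.p6, plus strand), are given 5′ to 3′ with CG dinucleotides in capitals.
Rspo1 promoter: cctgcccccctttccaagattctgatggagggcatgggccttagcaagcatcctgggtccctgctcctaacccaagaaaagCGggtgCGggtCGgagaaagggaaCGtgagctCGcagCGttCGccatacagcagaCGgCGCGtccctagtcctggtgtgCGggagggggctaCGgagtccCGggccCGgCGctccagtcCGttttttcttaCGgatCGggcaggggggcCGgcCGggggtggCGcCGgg
This stretch held 22 CG dinucleotides and was 66.8% G or C, whereas the median of 32851 RefSeq promoters of the same length was 6 CG dinucleotides and 52.4%. At least as many CG dinucleotides were present in 14.8% of those promoters. The letters CTTTGA, the core of TCF and LEF sites, did not occur on either strand (13.8% of promoters held them), nor did GGGCGG, the GC box (32.7% held it).

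The ligand genes are given first. Rspo1 was at 248.2, 302.7, 306.3 and 279.2 in the 4 WT-Veh mice and at 106.2, 126.5, 107.3 and 129.6 in the 4 HT-Veh mice. The groups did not overlap, and even the highest HT-Veh mouse was well under the lowest WT-Veh mouse. The log2 difference was -1.27 ± 0.13 (SE, n = 4 and 4), a level 2.41 times lower in HT-Veh (-1.38 ± 0.13 without the 2 libraries of these groups that were rich in olfactory bulb RNA), and this is the contrast by which Rspo1 was chosen. In that contrast 0.0178% of 16832 genes passed an adjusted p of 0.05 in limma, and 1.78% were lower in HT-Veh without overlap.

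The fluoxetine mice were not in that contrast and give a comparison outside it. It was not a like repeat, since WT-Flx replicates 1, 2 and 4 were rich in olfactory bulb RNA and no HT-Flx library was. Rspo1 was at 222.7, 169.8, 271.0 and 85.3 in the WT-Flx mice and at 141.4, 108.9, 159.1 and 85.6 in the HT-Flx mice. WT-Flx was spread over a wide range that took in 3 high mice and 1 mouse level with the lowest HT-Flx mouse, so the groups overlapped. The difference, HT-Flx minus WT-Flx, was -0.51 ± 0.32 on the log2 scale and did not pass the test (limma, adjusted p = 0.581; exact permutation test, two-sided p = 0.257). Without WT-Flx replicate 3 the difference was -0.29 ± 0.32 (adjusted p = 0.724), and without WT-Flx replicate 4 it was -0.85 ± 0.24 (adjusted p = 0.729). Adjusted for the olfactory bulb score it was -1.62 ± 0.34 (adjusted p = 1.0). That score was 5.61 to 6.21 in HT-Flx and 6.44 to 9.77 in WT-Flx. The groups share no score, so the adjusted difference is an extrapolation.

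**Figure D1:**
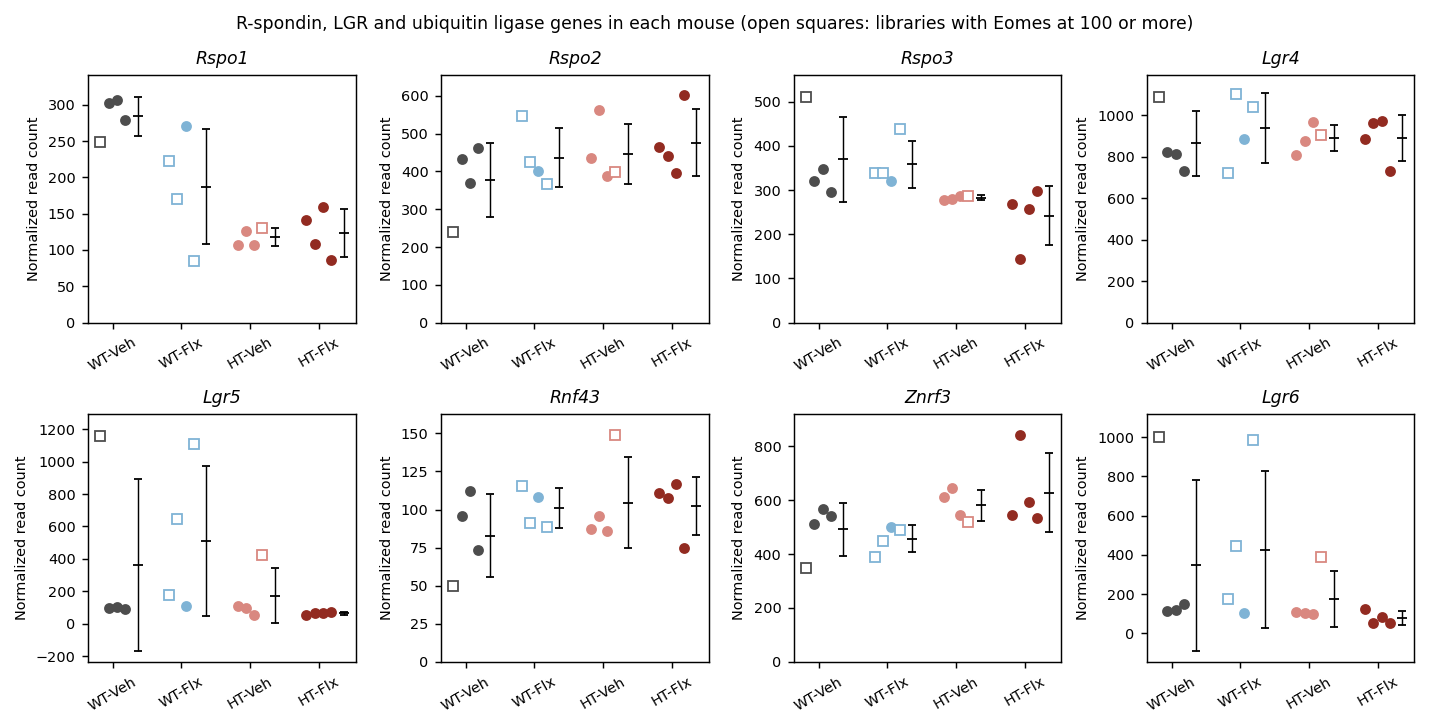
Normalized read count (vertical axis) of each gene in each of the 16 mice by group, with 1 point per mouse and the mean ± SD of the 4 mice at the right of each group. Open squares are the 5 libraries with Eomes at 100 or more. Rspo1 sits at 248.2 to 306.3 in WT-Veh and at 106.2 to 129.6 in HT-Veh, and the high Lgr5 and Lgr6 points are open squares.

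The Rspo1 values were also set beside the olfactory bulb score of each mouse. In WT-Flx, Rspo1 was 271.0, 222.7, 169.8 and 85.3 in mice with an olfactory bulb score of 6.44, 7.96, 8.68 and 9.77. However, WT-Veh replicate 1 had the highest score of all (9.96) and kept Rspo1 at 248.2. Among the 11 libraries without much olfactory bulb RNA, Rspo1 was at 271.0 to 306.3 in 4 WT mice and at 85.6 to 159.1 in 7 HT mice. Of these, 3 WT mice and 3 HT mice were vehicle mice that the choice of Rspo1 had used, so this separation is a description. The part of olfactory bulb RNA in the Rspo1 values was not tested. In bulk tissue, fewer cells that express a gene and less RNA per cell cannot be told apart.

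Rspo1 is known from layer 4, and the 5 genes of layer 4 and layer 5a were therefore set beside it. Their summed level was 2268 to 2962 in WT-Veh against 2299 to 2890 in HT-Veh mice, and 2000 to 2839 in WT-Flx against 2374 to 2615 in HT-Flx mice, which overlap. Within the list, Hsd11b1 was at 308 to 391 in WT-Veh and 210 to 311 in HT-Veh, and Scnn1a was at 60.0 to 82.2 and 32.4 to 68.3. In the fluoxetine mice Hsd11b1 was at 245 to 306 in WT-Flx and 291 to 325 in HT-Flx, and Scnn1a was at 85.2 to 94.2 and 35.0 to 105. Kcnh5 was at 217 to 601 in WT-Veh and 407 to 690 in HT-Veh, and Ctxn3 at 27.3 to 170.0 and 38.4 to 54.4. The 170.0 was that of WT-Veh replicate 1, which was rich in olfactory bulb RNA. Rorb, the layer 4 transcription factor, was at 1498 to 1850 in WT-Veh and 1588 to 1856 in HT-Veh. It made up most of the summed level, which therefore says little on the low genes. At an unadjusted p under 0.05 (limma), 2 of the 5 genes were lower in HT-Veh than in WT-Veh, against 4.88% of all genes in either direction. In HT-Flx versus WT-Flx 1 of the 5 was lower, against 10.4%. That gene was Ctxn3, at 48.7 to 139 in WT-Flx and 31.5 to 55.5 in HT-Flx. The 139 was that of WT-Flx replicate 4, which was rich in olfactory bulb RNA. No gene of the list was called, and none of the 5 was at 0 in any library. Their part in the Rspo1 values was not tested.

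Fluoxetine and vehicle mice of each genotype were set side by side. The WT-Flx mice averaged 187 ± 79.5 (SD, n = 4) against 284 ± 26.8 in WT-Veh, a log2 difference of -0.72 ± 0.30, and the HT-Flx mice averaged 124 ± 32.8 against 117 ± 12.4 in HT-Veh, a difference of 0.041 ± 0.20. These comparisons reuse the vehicle mice by which Rspo1 was chosen, so they were not tested.

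Rspo2 (ENSMUSG00000051920, chromosome 15, 43020794 to 43170826, minus strand) encodes a close relative of RSPO1. It was at 240.9, 432.6, 369.6 and 461.6 in WT-Veh, at 547.2, 426.2, 402.3 and 368.0 in WT-Flx, at 435.1, 561.6, 388.6 and 398.0 in HT-Veh and at 465.7, 441.0, 397.0 and 601.1 in HT-Flx. All 4 groups overlapped. HT-Flx was 0.13 ± 0.16 log2 units above WT-Flx (adjusted p = 0.806, limma), and the difference HT-Veh minus WT-Veh was 0.27 ± 0.20.

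Rspo3 (ENSMUSG00000019880, chromosome 10, 29452416 to 29535867, minus strand), an R-spondin gene that is also known from vessels, showed lower values in HT mice. It was at 511.7, 321.7, 348.8 and 295.6 in WT-Veh and at 277.7, 280.3, 287.0 and 287.5 in HT-Veh. It was at 338.2, 338.4, 321.4 and 438.2 in WT-Flx and at 268.2, 145.0, 257.8 and 297.1 in HT-Flx. Neither pair of groups overlapped, while over all 16 mice the lowest WT mouse (295.6) lay just below the highest HT mouse (297.1). The log2 difference was -0.35 ± 0.16 in the vehicle mice and -0.61 ± 0.21 in the fluoxetine mice, and the latter missed the threshold after adjustment over all genes (adjusted p = 0.381, limma). Over both treatments it was -0.48 ± 0.14 (adjusted p = 0.269, limma, 8 and 8 mice).

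Rspo3 also moved with the olfactory bulb genes. Its highest values, 511.7 and 438.2, were in the libraries with the highest olfactory bulb scores, WT-Veh replicate 1 and WT-Flx replicate 4. Without the 5 libraries it was at 295.6 to 348.8 in 4 WT mice and at 145.0 to 297.1 in 7 HT mice, and the difference over both treatments was -0.28 ± 0.17 (adjusted p = 0.870). The lowest value came from HT-Flx replicate 2, and without that mouse the difference in the fluoxetine groups was -0.38 ± 0.15 (adjusted p = 0.543). The summed level of 9 meningeal and vascular fibroblast genes, which are other sources of Rspo3, was 3191 to 4477 in WT-Veh against 3298 to 3797 in HT-Veh mice, and 3342 to 4356 in WT-Flx against 2967 to 4124 in HT-Flx mice. That of 8 endothelial and mural genes ran from 9601 in HT-Flx to 13168 in HT-Veh. The part of either list in the Rspo3 values was not tested.

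Read per kilobase of exon, so that genes of different length can be compared, the ligand genes were at similar levels in the mean of 16 mice: 101 ± 25.8 (SD) normalized reads per kb for Rspo3, 91.9 ± 41.4 for Rspo1 and 84.8 ± 16.8 for Rspo2. Their ranges overlapped, so no order among them held beyond the spread. The order differed between groups. In WT-Veh, Rspo1 was the highest ligand gene at 147 ± 13.8 per kb, before Rspo3 (120 ± 31.5) and Rspo2 (73.6 ± 19.2), whereas in HT-Veh it was the lowest at 60.6 ± 6.38, after Rspo3 (91.6 ± 1.58) and Rspo2 (87.2 ± 15.6). Of the summed level of the 3 genes per kb, Rspo1 made up 37.6% to 46.0% in WT-Veh against 23.8% to 28.1% in HT-Veh mice, and 17.1% to 43.3% in WT-Flx against 17.1% to 33.8% in HT-Flx mice. The sum itself was 330 to 345 per kb in WT-Veh and 224 to 266 in HT-Veh, a difference that contains the one by which Rspo1 was chosen.

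**Figure D2:**
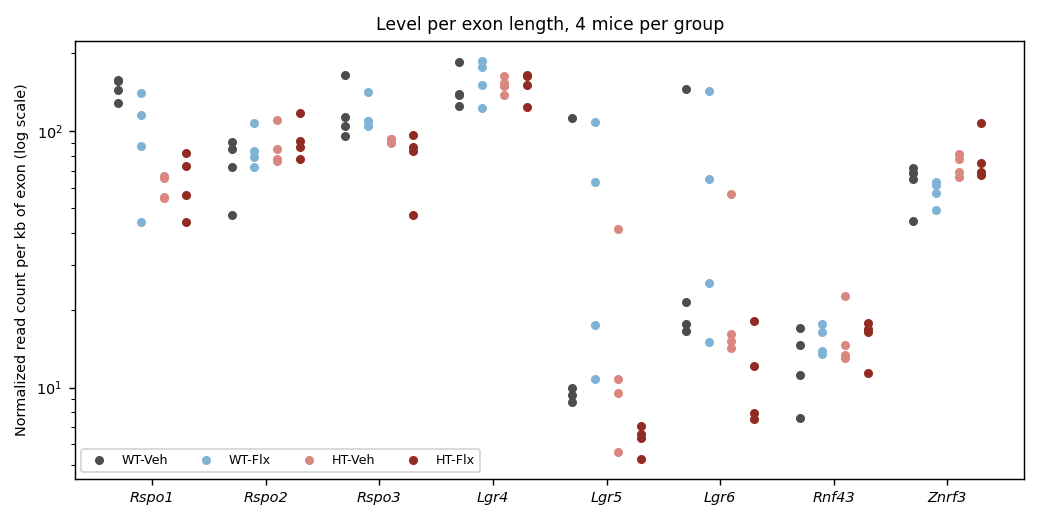
Normalized read count per kb of exon on a log axis for each gene, with 1 point per mouse and colours for the 4 groups. Lgr4 lies at 123 to 188 per kb, Rspo1 is lower in HT-Veh than in WT-Veh, and Lgr5 and Lgr6 spread over more than a factor of 10.

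Of the receptors, Lgr4 (ENSMUSG00000050199, chromosome 2, 109917647 to 110014257, plus strand), which is widely expressed in adult tissues, had the highest mean per kb, 152 ± 20.6 (SD, n = 16). In WT-Veh it was level with Rspo1, which was above it in 3 of the 4 mice. It was at 1088.3, 821.0, 810.1 and 732.3 in WT-Veh, at 722.6, 1103.7, 885.0 and 1038.3 in WT-Flx, at 809.4, 876.8, 964.2 and 905.2 in HT-Veh and at 887.0, 963.8, 971.8 and 730.5 in HT-Flx. All groups overlapped. The difference HT-Flx minus WT-Flx was -0.068 ± 0.15 (adjusted p = 0.893, limma), and its sign turned in the fits that took the olfactory bulb score into account.

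Lgr5 (ENSMUSG00000020140, chromosome 10, 115450311 to 115587780, minus strand) varied most of all 7 genes. It was at 1154.6, 96.1, 102.0 and 90.4 in WT-Veh, at 179.1, 646.0, 110.6 and 1106.4 in WT-Flx, at 110.3, 98.1, 57.4 and 425.8 in HT-Veh and at 54.1, 65.2, 67.6 and 73.0 in HT-Flx. Thus the 5 highest values were those of the 5 libraries with much olfactory bulb RNA, and every other library was at 54.1 to 110.6. HT-Flx lay entirely below WT-Flx, with a log2 difference of -2.40 ± 0.57 (a level 5.28 times lower) that did not pass after adjustment (adjusted p = 0.289, limma). Leaving out WT-Flx replicate 3, the WT-Flx mouse with the least Lgr5, moved the difference to -2.95 ± 0.46 and past the threshold (adjusted p = 0.0357).

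The Lgr5 difference was much smaller once olfactory bulb RNA was taken into account. Adjusted for the olfactory bulb score, the difference HT-Flx minus WT-Flx was -0.18 ± 0.42 (adjusted p = 1.0). This is an extrapolation, since the score was 5.61 to 6.21 in HT-Flx and 6.44 to 9.77 in WT-Flx, without overlap. Without the 5 libraries Lgr5 was at 90.4 to 110.6 in 4 WT mice and at 54.1 to 110.3 in 7 HT mice, and the difference over both treatments was -0.38 ± 0.20 (adjusted p = 0.833) against -1.44 ± 0.59 with them (adjusted p = 0.391). All 10 olfactory bulb genes were lower in HT-Flx than in WT-Flx, 8 of them at an unadjusted p under 0.05 and none after adjustment (median -2.54, against 0.0081 over all genes).

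Lgr6 (ENSMUSG00000042793) showed the same split, with 175 to 1000 in the 5 libraries and 51.7 to 148 in the other 11. Its difference HT-Flx minus WT-Flx was -2.01 ± 0.56 (adjusted p = 0.331, limma) and was 0.050 ± 0.52 after adjustment for the olfactory bulb score. The latter is an extrapolation too, since the scores of HT-Flx and WT-Flx did not overlap.

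**Figure D3:**
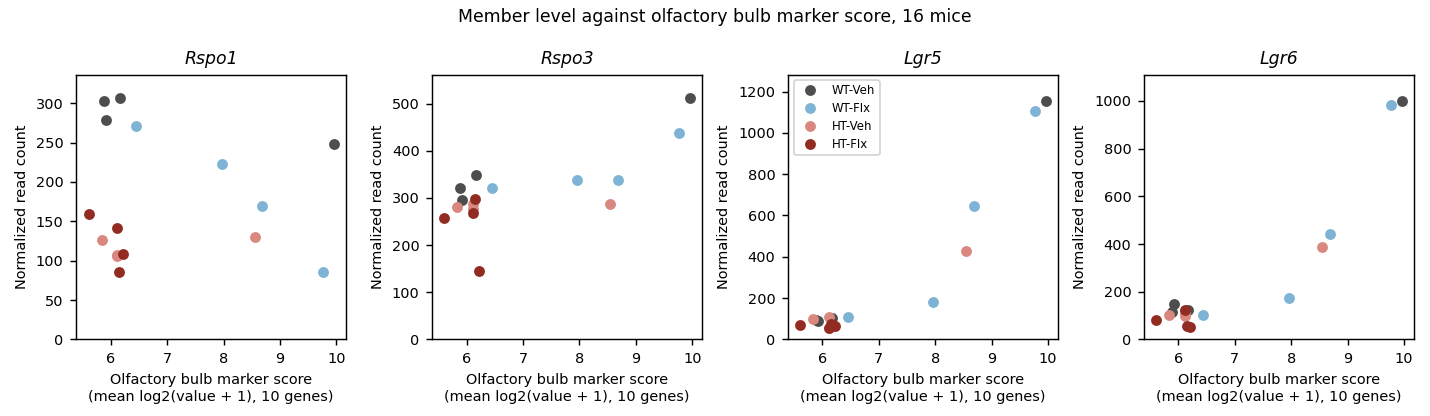
Normalized read count (vertical axis) against the olfactory bulb marker score, the mean log2(value + 1) of 10 genes (horizontal axis), with 1 point per mouse coloured by group. Lgr5 and Lgr6 are high in the mice with a score of 7.96 or more, Rspo3 is highest in the 2 mice with the highest scores, and Rspo1 is highest in WT-Veh mice at low scores.

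The ligase genes are given next. Rnf43 (ENSMUSG00000034177, chromosome 11, 87662722 to 87735539, plus strand) had the lowest mean per kb of the members over all mice, 14.9 ± 3.45 (SD, n = 16). In HT-Flx, which held no library rich in olfactory bulb RNA, Lgr5 was lower, at 6.33 ± 0.77 per kb against 15.6 ± 2.88 for Rnf43. In the other groups, all of which held libraries rich in olfactory bulb RNA, the Lgr5 mean was above that of Rnf43. Rnf43 was at 49.9, 95.7, 112.3 and 73.3 in WT-Veh, at 115.7, 91.4, 108.2 and 88.8 in WT-Flx, at 87.4, 95.7, 85.7 and 148.7 in HT-Veh and at 110.7, 107.8, 116.6 and 74.6 in HT-Flx. The groups overlapped, and HT-Flx differed from WT-Flx by 0.0081 ± 0.20 (adjusted p = 0.993, limma), with a sign that changed between fits.

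Znrf3 (ENSMUSG00000041961, chromosome 11, 5276324 to 5444847, minus strand), the partner ligase, was at 68.2 ± 14.0 per kb. It was at 349.9, 510.7, 565.4 and 539.3 in WT-Veh, at 388.1, 449.9, 498.4 and 487.2 in WT-Flx, at 611.7, 642.9, 545.0 and 519.4 in HT-Veh and at 543.3, 842.8, 591.6 and 532.4 in HT-Flx. Every HT-Flx mouse was above every WT-Flx mouse, whereas the vehicle groups overlapped. The difference was 0.44 ± 0.16 in the fluoxetine groups (adjusted p = 0.381, limma), 0.26 ± 0.15 in the vehicle groups and 0.35 ± 0.11 over both treatments (adjusted p = 0.302). The highest value was that of HT-Flx replicate 2, and without that mouse the fluoxetine difference was 0.29 ± 0.13 (adjusted p = 0.567). The lowest were those of WT-Veh replicate 1 and WT-Flx replicate 1, both rich in olfactory bulb RNA, and without the 5 libraries the difference over both treatments was 0.21 ± 0.12 (adjusted p = 0.860).

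Over the set, no gene was called in HT-Flx versus WT-Flx (0 of 7, limma), where 0.0417% of 16788 genes were called. At an unadjusted p under 0.05 there were 3 of 7 (Rspo3, Lgr5 and Znrf3) against 10.4% of all genes, and the same 3 did not overlap between the groups against 5.83% of all genes. The median difference of the 7 genes was -0.068, against 0.0081 over all genes. Of the 6 members other than Rspo1, none was called over both treatments (0.0398% of 17567 genes were), with 3 of 6 at an unadjusted p under 0.05 against 11.9% of all genes. WT-Flx replicates 1, 2 and 4 were rich in olfactory bulb RNA, and no HT-Flx library was. Adjusted for the olfactory bulb score, 382 of 16788 genes were at that p in HT-Flx versus WT-Flx (limma). Without the score there were 1754. Over both treatments there were 977 of 17567 genes with the score and 2083 without it. The members were not counted at that p with the score in the fit.

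For fluoxetine, none of these 6 members was called in HT-Flx versus HT-Veh or in WT-Flx versus WT-Veh (limma), and none was at an unadjusted p under 0.05 in either, where 3.07% and 4.2% of all genes were. The share of all genes called was 0% in both. Lgr5 differed by -0.97 ± 0.46 in HT mice, and by -0.40 ± 0.25 without HT-Veh replicate 4. In WT mice it differed by 0.94 ± 0.91, which ran from 0.38 without WT-Flx replicate 4 to 1.84 without WT-Veh replicate 1 and was -0.23 ± 0.24 after adjustment for the olfactory bulb score. Rspo3 differed by -0.28 ± 0.19 in HT and -0.019 ± 0.18 in WT mice. The interaction of genotype and treatment was called for none of the 6 (0% of all genes called; 0 of 6 at an unadjusted p under 0.05, against 4.29%), with a value of -1.92 ± 1.12 at Lgr5.

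**Figure D4:**
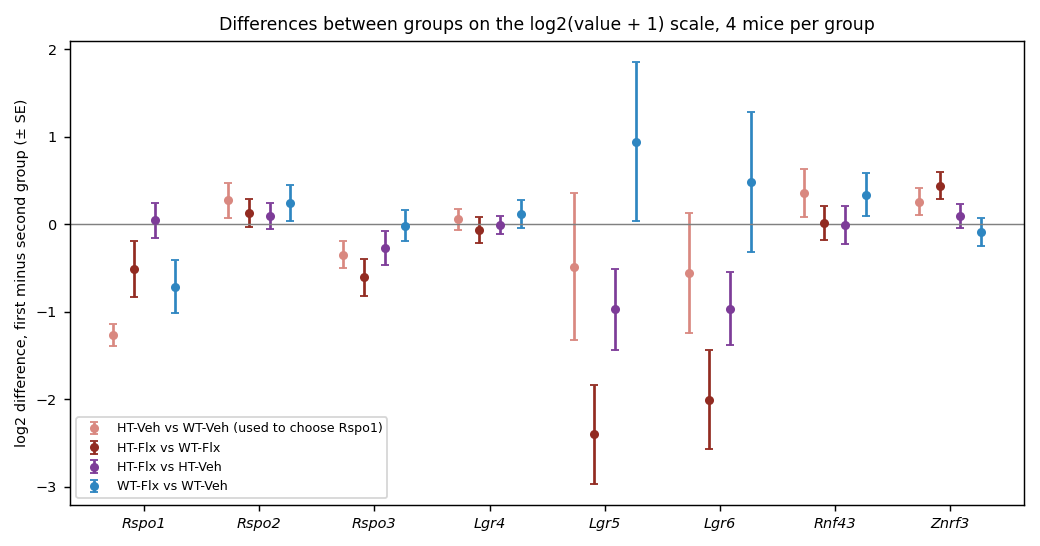
Log2 difference between groups (vertical axis, first minus second group, ± SE) for each gene in the 4 comparisons of 4 against 4 mice. Rspo1 stands at -1.27 in HT-Veh versus WT-Veh, the comparison by which it was chosen, and the wide bars of Lgr5 and Lgr6 go with the libraries rich in olfactory bulb RNA.

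The rest of the Wnt pathway was examined in 86 listed genes, of which 77 were measured and 73 to 75 passed the filter in each comparison. None was called in any of the 6 comparisons (limma). At an unadjusted p under 0.05 there were 13 of 74 in HT-Flx versus WT-Flx (10 higher and 3 lower in HT-Flx, against 10.4% of all genes). There were 2 of 74 in HT-Flx versus HT-Veh (against 3.07%) and 4 of 75 in WT-Flx versus WT-Veh (against 4.2%). Over both treatments there were 12 of 75 (against 11.9%), and for the interaction 5 of 75 (against 4.29%). In HT-Veh versus WT-Veh there was 1 of 73. In HT-Veh versus WT-Veh the share of all genes under that p was 4.88%, and the gene was Sfrp1, a secreted Wnt inhibitor (0.33 ± 0.079, adjusted p = 0.811).

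By role, the medians in HT-Flx versus WT-Flx lay close to the 0.0081 of all genes: 0.015 for 15 genes of Wnt ligands and of their release (Porcn and Wls among them), 0.040 for 15 Frizzleds and co-receptors, 0.048 for 12 inhibitors, 0.085 for 12 genes of cytoplasmic transduction, -0.043 for 12 nuclear factors and 0.029 for 7 target genes. In HT-Veh versus WT-Veh they were -0.042, 0.085, -0.028, 0.032, 0.047 and 0.036 for the same roles, against 0.0062 over all genes.

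The gene with the smallest p in the pathway was Frzb, a secreted protein that binds Wnt. It was at 723.4, 751.7, 669.4 and 920.4 in WT-Flx and at 444.6, 388.4, 499.7 and 485.5 in HT-Flx, so the groups did not overlap. The difference was -0.75 ± 0.13 (adjusted p = 0.103, limma). Its highest value, 1013.7, was in WT-Veh replicate 1, the library with the highest olfactory bulb score. Within WT-Flx, Frzb was lowest (669.4) in replicate 3, with the lowest olfactory bulb score of that group (6.44). It was highest (920.4) in replicate 4, with the highest score of that group (9.77). The part of olfactory bulb RNA in the differences of Frzb and of the genes below was not tested. Among the other roles, the smallest p in HT-Flx versus WT-Flx belonged to Wnt2b, a Wnt ligand (1.18 ± 0.41, adjusted p = 0.381), Apc2, of the beta-catenin destruction complex family (0.32 ± 0.092, adjusted p = 0.335), Bcl9, a beta-catenin co-factor (0.35 ± 0.14, adjusted p = 0.423), Ccnd1, a cyclin (0.23 ± 0.089, adjusted p = 0.419), and Fzd3, a Frizzled (0.22 ± 0.14, adjusted p = 0.602).

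Genes that carry or read out the canonical signal were also not called. Axin2, the usual target gene, averaged 908 ± 76.8 (SD, n = 4) in WT-Veh, 893 ± 86.2 in HT-Veh, 816 ± 55.6 in WT-Flx and 1007 ± 142 in HT-Flx. Its difference was -0.026 ± 0.094 in the vehicle groups (adjusted p = 0.975) and 0.29 ± 0.12 in the fluoxetine groups (adjusted p = 0.424). Lef1, a transcription factor of the pathway, differed by 0.24 ± 0.15 and -0.14 ± 0.19, Nkd1, a feedback inhibitor, by 0.038 ± 0.089 and -0.054 ± 0.13, Ctnnb1, the beta-catenin gene, by 0.030 ± 0.12 and -0.17 ± 0.099, and Lrp6, the co-receptor, by 0.25 ± 0.12 and 0.062 ± 0.10. None of these 4 genes passed the test (adjusted p from 0.563 to 0.976, limma).

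**Figure D5:**
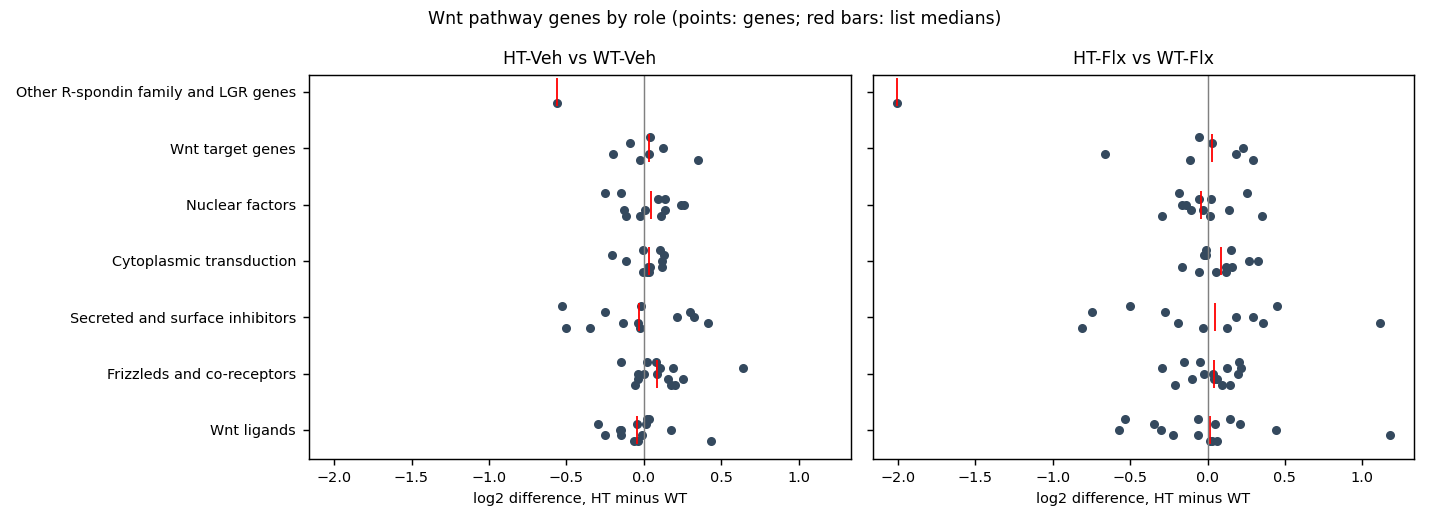
Log2 difference, HT minus WT (horizontal axis), of the Wnt pathway genes outside the set by role, in vehicle mice (left) and fluoxetine mice (right), with 1 point per gene and a red bar at the median of each role. The medians of the 6 larger roles lie between -0.043 and 0.085 in both panels, and the single gene of the top row is Lgr6.

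Finally, the genes whose values followed each member most closely were sought among 12543 genes with a mean of at least 100. Pearson's r was taken over the log2 values of the 16 mice, which share group and olfactory bulb content, and is a description. For Rspo1 the 5 highest were Pip5kl1 (0.89), Gm10125 (0.81), Arl4c (0.79), Sgpp2 (0.78) and Adssl1 (0.78). Pip5kl1 averaged 196 in WT-Veh, 134 in HT-Veh, 146 in WT-Flx and 134 in HT-Flx mice. The r over 16 mice contains the group difference by which Rspo1 was chosen. After the group means were removed, r with Rspo1 was 0.74 for Pip5kl1 and 0.53 for Gm10125. It was 0.70 for Arl4c, 0.76 for Sgpp2 and 0.61 for Adssl1. The 5 highest were then other genes: Adrb1 (0.83), Ciart (0.82), Map4k2 (0.82), Adamtsl5 (0.81) and Tfpi (0.81).

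For the other members the 2 closest genes were Slc8a2 (0.85) and Gm19410 (0.84) for Rspo2, Kit (0.90) and Mtx2 (0.88) for Rspo3, Yes1 (0.86) and Peli2 (0.85) for Lgr4, Gng4 (0.97) and Cacng5 (0.97) for Lgr5, Ptpn5 (0.82) and Zc3h7a (0.81) for Rnf43, and Pxdn (0.94) and Tbc1d24 (0.94) for Znrf3. Gng4 averaged 2682 in WT-Flx, 1874 in WT-Veh, 1143 in HT-Veh and 893 in HT-Flx mice, the same order of groups as Lgr5.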

How the data were processed

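RNA from the mPFC of 16 mice was sequenced by the authors as stranded poly-A libraries. Per the labels and methods, the authors quantified transcripts with Salmon 1.1.0 on GRCm38 with GC bias correction, made gene values from these with tximport and scaled the libraries in DESeq2 1.30.1. The deposited signal is therefore a normalized estimated read count per gene. The values were not whole numbers, so depth is unknown and no interval or floor that needs it is given. The normalized totals were 92.8% to 104% of their mean. No 2 libraries were identical, and replicates had not been pooled.

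Groups and replicate numbers came from the sample titles. P-values measure the spread between these mice, each taken as independent. Treatment was given through the dams, but the labels name no dam or litter, so litter could not be taken into account. Genes that reached a value of 10 in no fewer than 4 samples of a fit were tested in limma 3.58.1 (R 4.3.3, trend) on log2(value + 1), with Benjamini-Hochberg adjustment over all genes tested and a threshold of 0.05. Differences are on that scale, which understates the change of low genes. Genotype was also fitted over both treatments with treatment as a term, and the interaction over 16 mice. Scripts were tested on simulated data. Positions and exon lengths came from the GENCODE M21 annotation of GRCm38 and the promoter from RefSeq.

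The members and lists were chosen with earlier results of these data known. Genes were named by rule: the members, Lgr6, Arid1b, 6 fixed Wnt genes, any pathway gene called, the gene of smallest p in each role in HT-Flx versus WT-Flx and the closest genes by r. Marker genes and Sfrp1 were named after their values were seen. Alternatives were other pseudocounts, filters and scalings, a replicate block, all 4 groups in the fit, an olfactory bulb covariate and leaving out each mouse.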

Additional observations from a re-analysis of the deposited data

Results flagged for a closer look

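In 4 of the 28 groups of 4 mice that were checked (7 genes in 4 groups), 1 mouse lay far from the other 3 by Dixon's test. Chance flags about 1 in 20 such groups. Lgr5 stood at 1154.6 in WT-Veh replicate 1 and at 425.8 in HT-Veh replicate 4, with gaps of 0.989 and 0.856 of the group's range. Rspo3 stood at 438.2 in WT-Flx replicate 4 (0.854), and Rnf43 at 148.7 in HT-Veh replicate 4 (0.841). All 4 values came from libraries rich in olfactory bulb RNA, with a marker score of 8.55 to 9.96. HT-Veh replicate 4 also had the highest summed level of the striatum markers (18967, against 4959 to 13084 in the other 15 libraries), and WT-Veh replicate 1, with the highest olfactory bulb score, had the lowest Rnf43 value (49.9). The part of either tissue in these values was not tested.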

How the results depend on the processing

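Of 572 alternative values for 27 results, 546 were counted as unchanged. For a tested difference this meant the same direction and side of the threshold, and for a number of genes called the same number. For the untested Rspo1 difference HT-Veh minus WT-Veh it meant a shift smaller than the spread within groups, with no check of the threshold. In that contrast 0 genes were called with all 4 groups in the fit and 0 with the replicate block. The Rspo1 difference HT-Flx minus WT-Flx ran from -0.85 to -0.29 when each mouse was left out and from -1.62 to -0.49 under the other alternatives, and it was never called. The Rspo1 difference HT-Veh minus WT-Veh ran from -1.33 to -1.22 and from -1.38 to -1.22. The number of members called in HT-Flx versus WT-Flx was 0 to 1 when each mouse was left out, with Lgr5 called (-2.95, adjusted p = 0.0357) without WT-Flx replicate 3; all other counts of members and pathway genes stayed at 0.

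Some differences changed sign, among them the 0.94 of Lgr5 in WT-Flx versus WT-Veh. For HT-Flx versus WT-Flx, Rspo2 was -0.17 with all 4 groups and the olfactory bulb covariate, Lgr4 was 0.12 with the covariate and 0.12 with all 4 groups and the covariate, and Rnf43 was -0.014 with upper quartile scaling, -0.24 with the covariate, -0.099 without the 5 libraries (which leaves 1 WT-Flx mouse, assumed to vary like the HT-Flx mice) and -0.17 with all 4 groups and the covariate. Over both treatments, Lgr4 was 0.10 with the covariate and 0.11 without the 5 libraries, and Rnf43 was -0.064 without them. For WT-Flx versus WT-Veh, Lgr5 was -0.23 with the covariate and -0.20 with all 4 groups and the covariate. With each mouse left out, Lgr4 ran from -0.19 to 0.023 and Rnf43 from -0.060 to 0.15 in HT-Flx versus WT-Flx, and Lgr4 from -0.056 to 0.043 over both treatments. The cause was not tested. The 2 alternatives without the 5 libraries and with all 4 groups and the covariate were chosen after seeing the data.

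The deviations of same-numbered mice correlated at r of -0.31 to 0.42, above 0 in 17 of 24 pairs and above 0.1 in 11, and in no comparison was every pair above 0.1, so the numbers were not taken to pair the mice. With the replicate block the Rspo1 difference HT-Flx minus WT-Flx was -0.51 ± 0.19 (adjusted p = 0.353) and 0 members were called. Over all genes the block moved the number called from 7 to 5 in HT-Flx versus WT-Flx and from 3 to 0 in HT-Veh versus WT-Veh, where it was 20 with the covariate and 11 without the 5 libraries. The unknown depth, the unknown litters, 4 mice per group and the uneven olfactory bulb RNA limit all comparisons.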
